A study of Mus musculus with 16 samples.

Results

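The 10 genes described here mark T cells, natural killer (NK) cells and B cells, and their transcripts were measured in mouse liver after dosing with emodin, a plant anthraquinone found in rhubarb root. They are Lck, Cd2, Cd3e, Cd3g and Cd8a for T cells, Nkg7 and Ccl5 for cytotoxic T and NK cells, and Cd79a, Cd79b and Ms4a1 for B cells. They were taken by symbol, and all 10 were found among the 27446 entries of the deposited table. The study sequenced RNA of 16 livers of wild-type C57BL/6 mice. The emodin group held 8 livers of mice dosed into the stomach with 400 mg/kg emodin in 0.5% CMC-Na for 3 weeks, and the vehicle group held 8 livers of mice given 0.5% CMC-Na alone. Sex and age are not given in the labels, and the labels do not state whether every library is a separate animal, so p-values measure the spread between these libraries, each taken as 1 mouse.

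T cells recognise antigen through a receptor complex that includes the CD3 chains, and the kinase Lck starts its signalling. B cells use a surface immunoglobulin whose signals pass through the CD79A and CD79B chains. The liver holds a resident and circulating pool of these cells, rich in NK cells and CD8 T cells, between its hepatocytes and in its sinusoids. In a piece of whole liver, fewer cells of a type and less RNA per cell cannot be told apart.

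The libraries held 28.3 to 48.2 M estimated counts (M, counts in units of 1e+06). Vehicle libraries averaged 32.3 ± 3.16 M (SD, n = 8), and emodin libraries were deeper at 38.6 ± 6.91 M (SD, n = 8). Hepatocyte transcripts dominated each liver: the 10 hepatocyte genes of the marker list summed to 61817 CPM (counts per 1e+06 counts of the library, after TMM scaling) or more, against 4.28 to 25.8 CPM for the 10 lymphocyte genes. The numbers behind the lymphocyte genes were therefore small, from 0 counts (Cd3e in emodin 3) to 246 counts (Ccl5 in vehicle 7) per gene and liver. Interferon-induced genes stood far above the vehicle range in emodin 2, 4, 5 and 8 (summed level of 22 genes 1552 to 3465 CPM, against 398 to 624 CPM in the vehicle livers).

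Each of the 10 lymphocyte genes had lower fitted levels in the emodin group, and 2 of them fell by the test used, Lck and Cd2. DESeq2 called a further one, Cd3e. For comparison, edgeR (quasi-likelihood fit, p-values adjusted by Benjamini-Hochberg) placed 5.47% of the 14308 tested entries lower with emodin and 7.7% higher (13.2% in either direction; 782 lower and 1102 higher, against 978 lower and 708 higher with quantile normalization), and 48.4% had a fitted log2 fold change below 0. DESeq2 called 7.82% of entries lower. The median log2 fold change (emodin over vehicle) of the 10 genes was -0.88, against 0.01 over all tested entries. The 10 genes share cells and livers, so they are not 10 independent observations. None of the 10 had all emodin livers below all vehicle livers, a pattern that 1.03% of tested entries showed (0.937% for all emodin livers above all vehicle livers).

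Upstream sequence is shown first for the genes in which it shares a stretch of letters. Windows of 250 bases before the annotated start site (RefSeq, GRCm38.p6, the assembly of mm10) were found for 6 of the 10 genes, with a pair of start sites for Lck, 7 windows in all. Cd2, Ccl5, Cd79b and Ms4a1 had no window in the table used. An extended form of the recognition sequence of ETS family factors, a family active in lymphocytes, was searched on both strands as CAGGAAGT. It occurred in 4 of the 7 windows, those of Lck (both), Cd3e and Cd79a. Of all 32851 windows of the same length 2.69% held it. The spelling was chosen after these windows had been read, so the share is a description. For Lck, the gene that fell, both windows are given on the gene's strand, without bases that lie in an exon of Lck, and for Cd3e and Cd79a 30 bases around the match. Capitals mark the match (ACTTCCTG is the same letters read on the other strand).
Lck, distal start site, chr4:129573642-129573891, minus strand: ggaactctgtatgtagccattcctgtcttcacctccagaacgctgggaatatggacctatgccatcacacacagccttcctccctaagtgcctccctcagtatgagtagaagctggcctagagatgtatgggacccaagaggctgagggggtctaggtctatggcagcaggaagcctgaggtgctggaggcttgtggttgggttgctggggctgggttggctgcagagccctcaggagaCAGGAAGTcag
Lck, proximal start site, chr4:129558392-129558622, minus strand: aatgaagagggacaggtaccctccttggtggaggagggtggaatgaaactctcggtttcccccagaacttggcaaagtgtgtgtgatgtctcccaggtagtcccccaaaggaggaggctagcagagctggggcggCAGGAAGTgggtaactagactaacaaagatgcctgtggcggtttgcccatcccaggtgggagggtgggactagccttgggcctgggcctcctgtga
Cd3e, chr9:45009612-45009641, minus strand: agtcccctctacACTTCCTGtgtggggttc
Cd79a, chr7:24897430-24897459, plus strand: gcacggctgaaCAGGAAGTgaggcggagtt
The match ended 4 bases before the distal start site of Lck and 108 bases before the proximal one, 11 bases before that of Cd3e and 49 bases before that of Cd79a, all as RefSeq places these start sites. The gene positions given for each gene come from GENCODE, which starts Cd3e and Cd79a further upstream, so that the match in Cd79a lies in the first GENCODE exon and that in Cd3e partly in the first exon of its longest-reaching transcript. The windows of Cd8a, Cd3g and Nkg7 did not hold this full stretch, though each held its shorter inner part GGAA. The RUNX core TGTGGT was in the distal Lck window and in that of Nkg7 (14.0% of all windows), and the E-box CAGGTG in the proximal Lck window and in those of Cd79a and Cd3g (17.2%), each searched on both strands.

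Lck encodes the Src family kinase that starts signalling from the T cell receptor, and on mm10 it lies on chromosome 4 from 129548344 to 129573641. Its level in the vehicle livers was 1.10 CPM at the lowest, 1.63 CPM at the median and 2.57 CPM at the highest, and in the emodin livers 0.486, 0.812 and 1.61 CPM. All 8 emodin livers lay below the vehicle median and 5 of 8 below every vehicle liver, while emodin 1, 4 and 7 lay within the vehicle range. Lck fell 1.99-fold (log2 fold change -0.99 ± 0.27, SE; edgeR adjusted p = 0.023). It was called in each of the 26 other fits, with 16 livers left out in turn and 10 other settings.

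Cd2, an adhesion receptor of T and NK cells (chromosome 3, 101275899 to 101287939), ran from 0.514 over a median of 0.645 to 1.34 CPM in the vehicle livers and from 0.185 over 0.382 to 0.615 CPM in the emodin livers. Here 6 of 8 emodin livers lay below every vehicle liver, and emodin 2 and 6 were the exceptions. Cd2 fell 1.86-fold (log2 fold change -0.90 ± 0.29; edgeR adjusted p = 0.0498), a value at the edge of the threshold. Of the 16 fits with 1 liver left out it passed in 2, without emodin 2 and without emodin 6 (edgeR adjusted p = 0.0442 and 0.0423), and without each other liver its log2 fold change was -0.96 to -0.72 with an edgeR adjusted p of 0.0534 to 0.103.

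Cd3e and Cd3g encode invariant chains of the T cell receptor complex and lie near each other on chromosome 9 (44998740 to 45009627 and 44969572 to 44980431). Cd3e ran from 0.455 over a median of 0.752 to 2.17 CPM in the vehicle livers and from 0 over 0.344 to 0.915 CPM in the emodin livers. The 0 of emodin 3 is a count of 0, which allows up to 0.0694 CPM (3 counts), and 5 of 8 emodin livers lay below every vehicle liver. The log2 fold change of Cd3e, -1.24 ± 0.47, was the lowest of the 10 in this fit but did not pass (edgeR adjusted p = 0.0897). It passed in DESeq2 (-1.26, adjusted p = 0.0422) and without emodin 1 (-1.53, edgeR adjusted p = 0.0423), whose 0.915 CPM was the highest emodin value. An annotated gene on the opposite strand, Gm48719, shares exonic bases with Cd3e, and no source states whether counting used strand. Cd3g ran from 0.497 over 1.18 to 2.27 CPM in the vehicle livers and from 0.254 over 0.704 to 1.43 CPM in the emodin livers, with 2 emodin livers below every vehicle liver (log2 fold change -0.77 ± 0.36, edgeR adjusted p = 0.164).

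Cd8a, the co-receptor chain of cytotoxic T cells that some dendritic cells also carry (chromosome 6, 71373427 to 71379173), ran from 0.494 over 1.12 to 4.95 CPM in the vehicle livers and from 0.347 over 1.03 to 1.38 CPM in the emodin livers. The medians were close and the groups overlapped in all but 2 emodin and 3 vehicle livers. Its log2 fold change was -0.88 ± 0.45 (edgeR adjusted p = 0.201), and -0.37 without vehicle 7, the liver at 4.95 CPM.

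**Figure D1:**
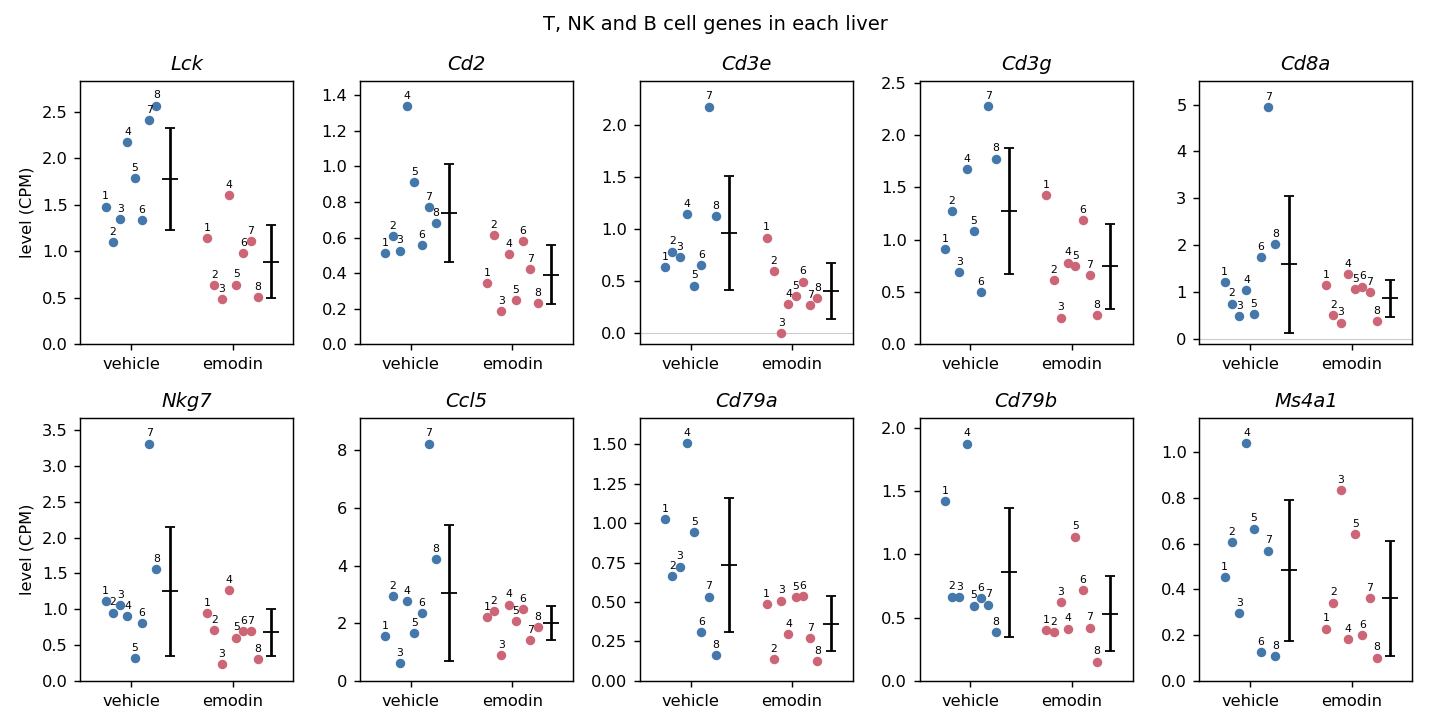
Level of each of the 10 genes in each liver in CPM after TMM scaling (vertical axis of each panel, from 0), vehicle livers in blue and emodin livers in red, with the liver's number above its point and the mean ± SD (n = 8) at the right of each group. Lck ran from 1.10 to 2.57 CPM in the vehicle livers and from 0.486 to 1.61 CPM in the emodin livers, and vehicle 7 is the single high point for Cd8a, Nkg7 and Ccl5.

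Nkg7 encodes a membrane protein of cytotoxic granules (chromosome 7, 43437073 to 43438249). It ran from 0.315 over 1.00 to 3.31 CPM in the vehicle livers and from 0.231 over 0.692 to 1.26 CPM in the emodin livers. In 7 of 8 emodin livers it lay below the vehicle median, and emodin 4 was the exception. The log2 fold change was -0.88 ± 0.40 (edgeR adjusted p = 0.149), and -0.50 without vehicle 7.

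Ccl5, a chemokine that attracts T cells and monocytes and that activated T and NK cells make (chromosome 11, 83525778 to 83530518), ran from 0.626 over 2.57 to 8.23 CPM in the vehicle livers and from 0.902 over 2.13 to 2.64 CPM in the emodin livers. No emodin liver lay below every vehicle liver, and the emodin range lay inside the vehicle range. The log2 fold change was -0.61 ± 0.38 (edgeR adjusted p = 0.302) and -0.21 without vehicle 7. Ccl5 is also a gene that inflammatory signals induce in other cells; in emodin 2, 4, 5 and 8, the livers with high interferon-induced genes, it stood at 2.41, 2.64, 2.06 and 1.86 CPM, and in emodin 1, 3, 6 and 7 at 2.2, 0.902, 2.48 and 1.41 CPM. Both sets of values overlap, and both lie within the vehicle range.

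Cd79a and Cd79b encode the paired signalling chains of the B cell receptor (chromosome 7, 24897381 to 24902197, and chromosome 11, 106311341 to 106314762). Cd79a ran from 0.164 over 0.695 to 1.51 CPM in the vehicle livers and from 0.127 over 0.392 to 0.536 CPM in the emodin livers. All 8 emodin livers lay below the vehicle median, but the low vehicle livers 6 and 8 (0.311 and 0.164 CPM) kept the groups overlapping. Its log2 fold change was -1.01 ± 0.41 (edgeR adjusted p = 0.108). Cd79b ran from 0.382 over 0.655 to 1.87 CPM in the vehicle livers and from 0.153 over 0.417 to 1.14 CPM in the emodin livers, where emodin 5 and 6 stood highest. Its difference was -0.69 ± 0.38 on the log2 scale (edgeR adjusted p = 0.227, -0.43 without vehicle 4).

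Ms4a1, the gene of the B cell surface protein CD20 (chromosome 19, 11249675 to 11266241), ran from 0.109 over 0.511 to 1.04 CPM in the vehicle livers and from 0.102 over 0.285 to 0.833 CPM in the emodin livers. It rested on 4 to 36 counts per liver. Its groups overlapped almost wholly, at a log2 difference of -0.42 ± 0.47 (edgeR adjusted p = 0.588), and -0.16 without vehicle 4. Its coefficient of variation was 64.0% in the vehicle and 69.6% in the emodin livers, against 25.8% and 27.0% from counting alone.

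Without vehicle 7, vehicle 4 or any other single liver, and in the 10 other settings, the fitted log2 fold change of each of the 10 genes stayed below 0 (260 of 260 values). The span over these fits was -1.17 to -0.89 for Lck and -1.53 to -0.96 for Cd3e with livers left out, and Cd3e reached -2.03 with array weights. Of the 8 genes that did not pass, 7 did not pass in any of these fits, and Cd3e was the exception.

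**Figure D2:**
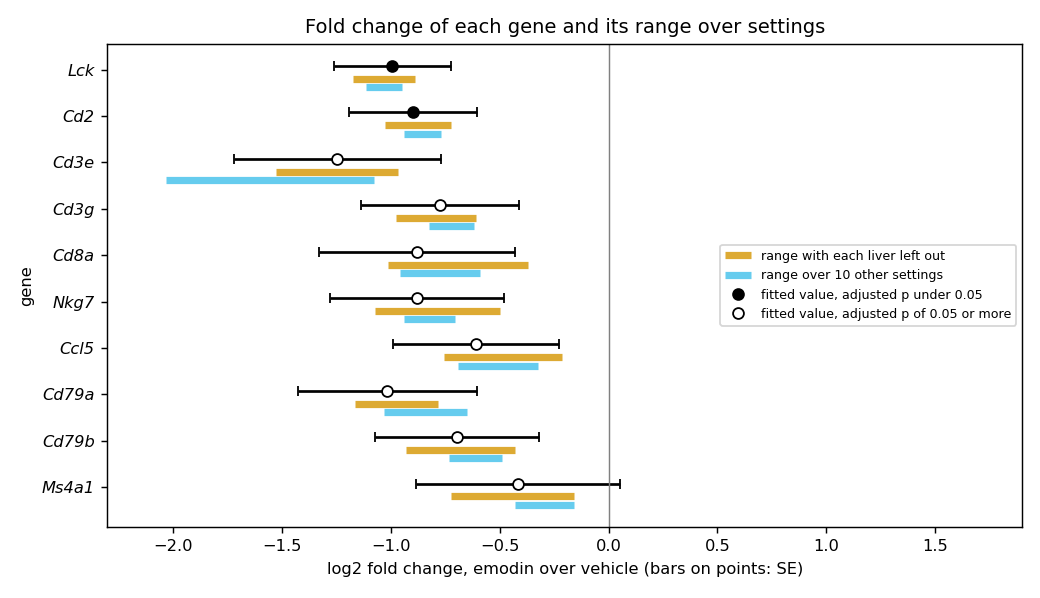
Log2 fold change, emodin over vehicle, of each gene (horizontal axis), with points for the edgeR value ± SE, filled where the adjusted p was under 0.05, and bars for the span with each of 16 livers left out (yellow) and over 10 other settings (light blue). Lck (-0.99) and Cd2 (-0.90) are filled, and all spans lie left of 0, closest for Ms4a1 (up to -0.16).

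Compared per kilobase of exon, which allows levels of different genes to be set side by side, Ccl5 was the most abundant of the 10 in vehicle livers (median 2.68 CPM per kb), followed by Nkg7 (1.10), Lck (0.558), Cd79a (0.477), Cd79b (0.458), Cd2 (0.37), Cd3g (0.361), Cd8a (0.309), Cd3e (0.184) and Ms4a1 (0.0826). Neighbours in this order overlapped over the 8 livers in every case. For scale, the albumin gene stood at 36129 CPM per kb and Ptprc, which encodes the leukocyte surface protein CD45, at 0.633. In the emodin livers Ccl5 (2.22) and Nkg7 (0.757) again led and Cd3e (0.0842) and Ms4a1 (0.0461) were again last, while Lck moved from the third to the fifth place (0.277), behind Cd79b (0.291) and Cd8a (0.283), from which it did not differ beyond the spread. Lengths are those of all annotated exons of a gene together, so genes whose main transcript is shorter, such as Ms4a1, are placed too low by this measure.

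Livers differed in which lymphocyte genes they carried. Vehicle 7 had the highest level of 16 livers for Cd3e, Cd3g, Cd8a, Nkg7 and Ccl5, yet only the 10th, 8th and 11th rank from the lowest for Cd79a, Cd79b and Ms4a1. Vehicle 4 had the highest level of all 3 B cell genes and of Cd2. Vehicle 8 was 14th to 16th for Lck, Cd3e, Cd3g, Cd8a, Nkg7 and Ccl5, and 2nd or 3rd from the lowest for the B cell genes. Among the emodin livers, emodin 3 was lowest for Lck, Cd2, Cd3e, Cd3g, Cd8a and Nkg7 but second highest of all 16 for Ms4a1. Emodin 8 was the lowest of the 16 for all 3 B cell genes and the second lowest for Lck, Cd2, Cd3g, Cd8a and Nkg7. Its Ms4a1 rank rested on 4 counts, the same count as in vehicle 6 and vehicle 8. For Cd79a it had 5 counts, against 6 in vehicle 8 and in emodin 2. Interferon-induced genes were low in emodin 3 (461 CPM over the 22 genes) and the highest of all livers in emodin 8 (3465 CPM).

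**Figure D3:**
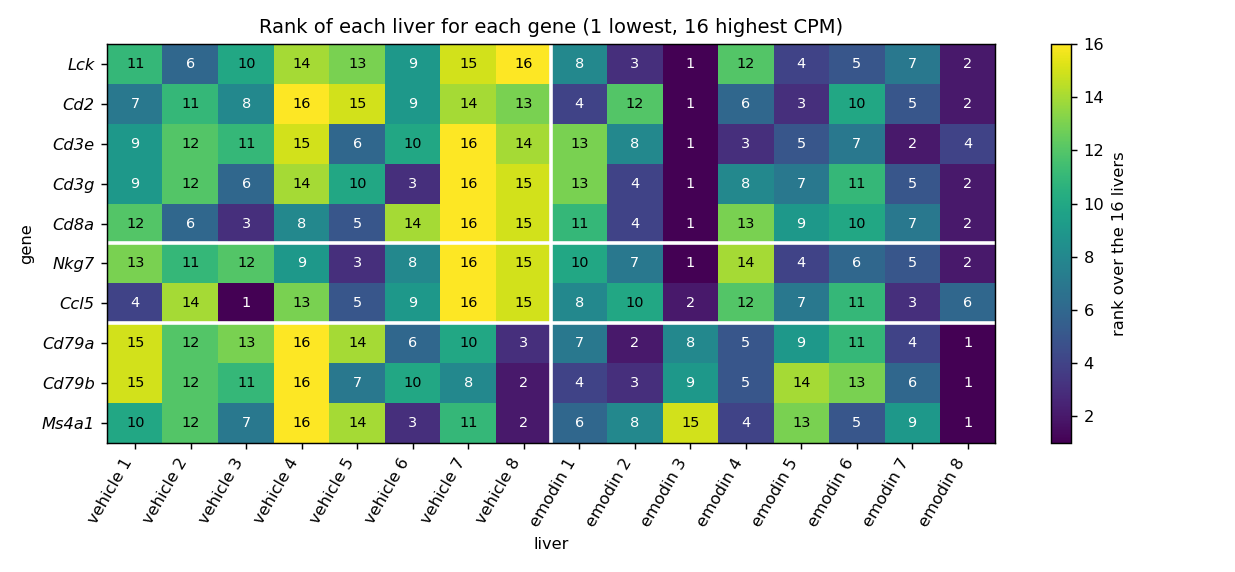
Rank of each of the 16 livers (columns) for each gene (rows), from 1 for the lowest CPM (dark) to 16 for the highest (yellow), with white lines between groups of livers and between T cell, cytotoxic and B cell genes. Emodin 3 has rank 1 for 6 of the 7 T cell and cytotoxic genes and rank 15 for Ms4a1, and emodin 8 has rank 1 for the 3 B cell genes. For Ms4a1, emodin 8, vehicle 6 and vehicle 8 each had 4 counts, so scaling set their order.

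Over the 16 livers, the 10 pairs of T cell genes differed by a median of 2.88 ranks per liver, and the 10 pairs of a T cell with a cytotoxic gene by 3.0. The 3 pairs of B cell genes differed by 2.88 ranks, from 1.88 (Cd79a with Cd79b) to 3.25. The 15 pairs of a B with a T cell gene differed by 4.62 ranks and the 6 pairs of a B cell with a cytotoxic gene by 5.62. The median tested gene differed from the averaged T cell pattern by 5.38 ranks. That is a distance to an average of 5 genes and not between 2 single genes. All these distances include the difference between the groups. All genes of a liver share that liver's library, so these distances describe the livers and were not tested.

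Summed over the 5 T cell genes, the level was 3.79 to 12.6 CPM in the vehicle livers (median 4.77) and 1.27 to 4.97 CPM in the emodin livers (median 3.26). For Nkg7 and Ccl5 the sums were 1.68 to 11.5 CPM (median 3.42) and 1.13 to 3.90 CPM (median 2.89), and for the 3 B cell genes 0.656 to 4.42 CPM (median 1.82) and 0.382 to 2.31 CPM (median 1.08). The emodin and vehicle ranges of all 3 sums overlapped. The coefficient of variation was lower in the emodin than in the vehicle livers for 5 of the 10 genes (Cd8a, Nkg7, Ccl5, Cd79a and Cd79b) and higher for the other 5. The gap was widest for Ccl5 (29.5% against 77.4%) and Cd8a (45.7% against 92.0%), the genes for which vehicle 7 stood at 8.23 and 4.95 CPM. Counting alone would give 11.3% and 10.1% for Ccl5, and 17.4% and 14.1% for Cd8a, so most of this spread lay between livers.

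**Figure D4:**
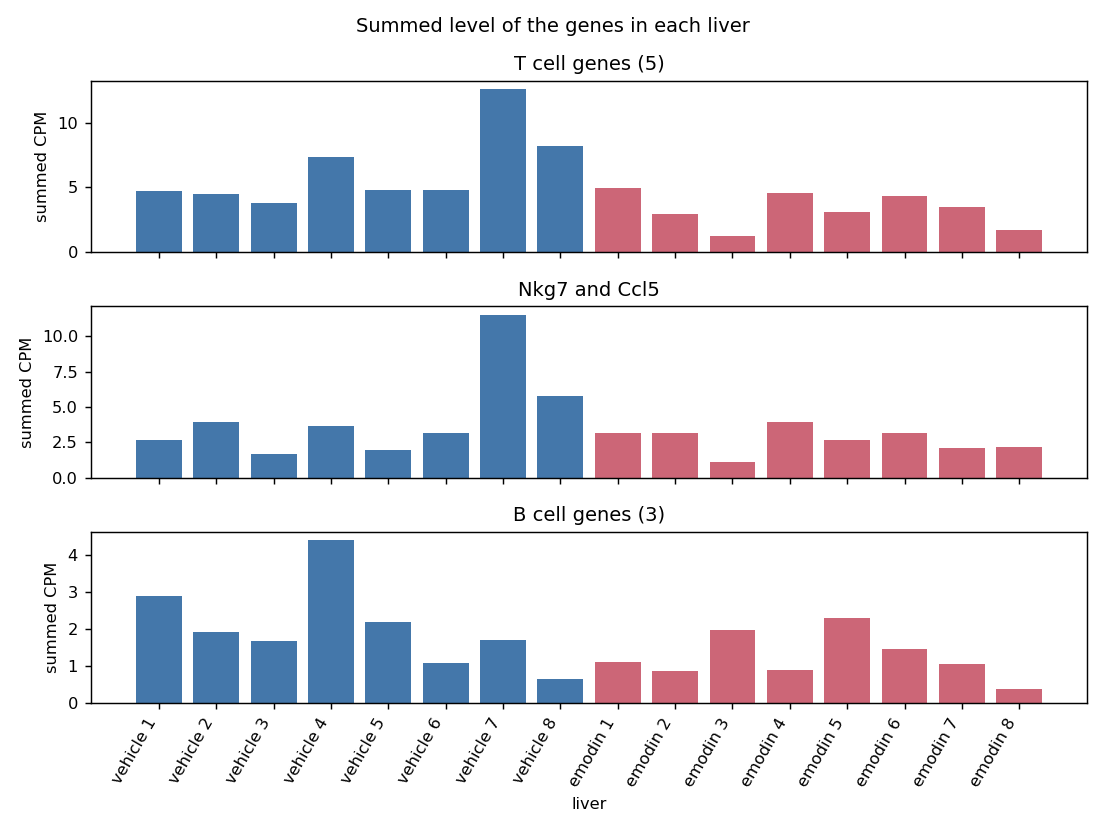
Summed CPM (vertical axes, from 0) of the 5 T cell genes, of Nkg7 with Ccl5, and of the 3 B cell genes in each liver, vehicle in blue and emodin in red. Vehicle 7 stands out in the first 2 panels (12.6 and 11.5 CPM) and vehicle 4 in the third (4.42 CPM).

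The genes whose order of livers was most like that of the T cell genes, by mean rank difference over 16 livers, were Xcr1 (1.12), which encodes a chemokine receptor of cross-presenting dendritic cells, Rps23rg1 and Ikzf3 (2.00 each), and Cnot3 and Cd74 (2.06 each). Ikzf3 encodes a lymphocyte transcription factor, Aiolos, Cnot3 a subunit of the mRNA deadenylase complex and Cd74 the invariant chain of MHC class II. Nearest to Nkg7 and Ccl5 were Gzma (granzyme A, 1.75), Rasal3 (2.06), Xcr1 (2.12), the interleukin 21 receptor gene Il21r and Klrd1, which encodes the NK receptor CD94 (2.25 each). Nearest to the B cell genes were Stat5b (1.94), Man2b1 (2.00), Rin2 and Foxn3 (2.06 each) and Kcp (2.12), none of them on the B cell list. These distances include the difference between the groups.

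Other genes of the same cells were examined through lists of the T cell receptor and co-receptors, T cell signalling, NK and cytotoxic cells, and B cells. Besides the 10 genes, these lists held 74 genes of the table, of which 45 had enough counts to be tested. Of the 45, 5 fell (11.1%), 1 rose, and 39 did not pass, with 37 log2 fold changes below 0 (82.2%) and a median of -0.50, against 5.47%, 48.4% and 0.01 for all tested entries. Immunoglobulin and T cell receptor constant genes were not analysed here.

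Of the T cell lists, Themis, needed for T cell development in the thymus, fell 2.18-fold from 1.39 ± 0.508 to 0.635 ± 0.165 CPM (mean ± SD, n = 8 each; log2 fold change -1.12 ± 0.25, edgeR adjusted p = 0.00834), with 6 of 8 emodin livers below every vehicle liver. It was called in each of the 26 other fits. Other chains of the receptor complex had values of the same size without passing, Cd247 at -1.14 ± 0.44 (edgeR adjusted p = 0.0937) and Cd3d at -0.98 ± 0.39 (0.101). So did the transcription factor gene Bcl11b at -1.08 ± 0.38 (0.0661) and the adaptor gene Lat at -0.69 ± 0.24 (0.0688). In the receptor list 7 of 7 tested genes outside the 10 had values below 0 and 0 passed in edgeR (3 at an unadjusted p under 0.05; 1 in DESeq2, Cd247), and in the signalling list 9 of 12 were below 0 and 1 passed.

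Of the NK and cytotoxic list, Tbx21, which encodes the transcription factor T-bet of NK cells and type 1 T cells, fell 1.84-fold from 0.446 ± 0.0721 to 0.241 ± 0.0828 CPM (log2 fold change -0.88 ± 0.24, edgeR adjusted p = 0.0248), with 7 of 8 emodin livers below every vehicle liver. Its call was lost without emodin 2 (-0.83, edgeR adjusted p = 0.0511) and in 3 of 10 other settings. Outside Nkg7 and Ccl5, 1 of 15 tested genes of this list passed and 13 had values below 0, with a median of -0.50. Cd160, a receptor of NK and intraepithelial T cells, had -0.82 ± 0.28 (edgeR adjusted p = 0.0585) and Cd7, a surface protein of T and NK cells, -0.76 ± 0.30 (0.102).

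Of the B cell list, 3 of 11 tested genes outside Cd79a, Cd79b and Ms4a1 fell and 1 rose. Bach2, a transcriptional repressor of B and T cells, fell 2.11-fold from 9.24 ± 2.43 to 4.38 ± 1.04 CPM (log2 fold change -1.08 ± 0.18, edgeR adjusted p = 0.00131), with all 8 emodin livers below every vehicle liver and its call kept in each of the 26 other fits. The co-activator gene Pou2af1 fell 2.76-fold from 0.930 ± 0.574 to 0.331 ± 0.215 CPM (-1.47 ± 0.43, edgeR adjusted p = 0.0327). Pou2af1 lost its call without vehicle 1, 3, 4 or 5 or emodin 2, 3 or 5 (-1.48 to -1.15, edgeR adjusted p = 0.0514 to 0.0747), and in 1 of 10 other settings. Ly6d, a surface protein of early B cells that epithelial cells also make, rose 10.4-fold (3.39 ± 0.90, edgeR adjusted p = 0.0245). It stood at 27.6 CPM in emodin 4 and 10.04 CPM in emodin 8 against 0.510 to 1.815 CPM in the other emodin livers and up to 0.910 CPM in the vehicle livers. The value was 2.12 without emodin 4, where the call was lost (edgeR adjusted p = 0.0524), and the call was also lost in 5 of 10 other settings, at a value as low as 0.64. Emodin 4 and 8 also had the highest summed level of the bile duct list (173 and 118 CPM, against at most 66.4 CPM in the vehicle livers), but that sum was mostly Spp1, which other cells also make and which reached 154 CPM. Of the 5 tested genes of that list 0 passed, and their median log2 fold change was 0.24. Values lay below 0 for 2, Krt19 (-0.52, edgeR adjusted p = 0.384) and Epcam (-0.32, 0.509). They lay above 0 for Sox9 (1.15, edgeR adjusted p = 0.105), Spp1 (0.51, 0.326) and Krt7 (0.24, 0.702). Whether such cells made the Ly6d transcripts was not tested.

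**Figure D5:**
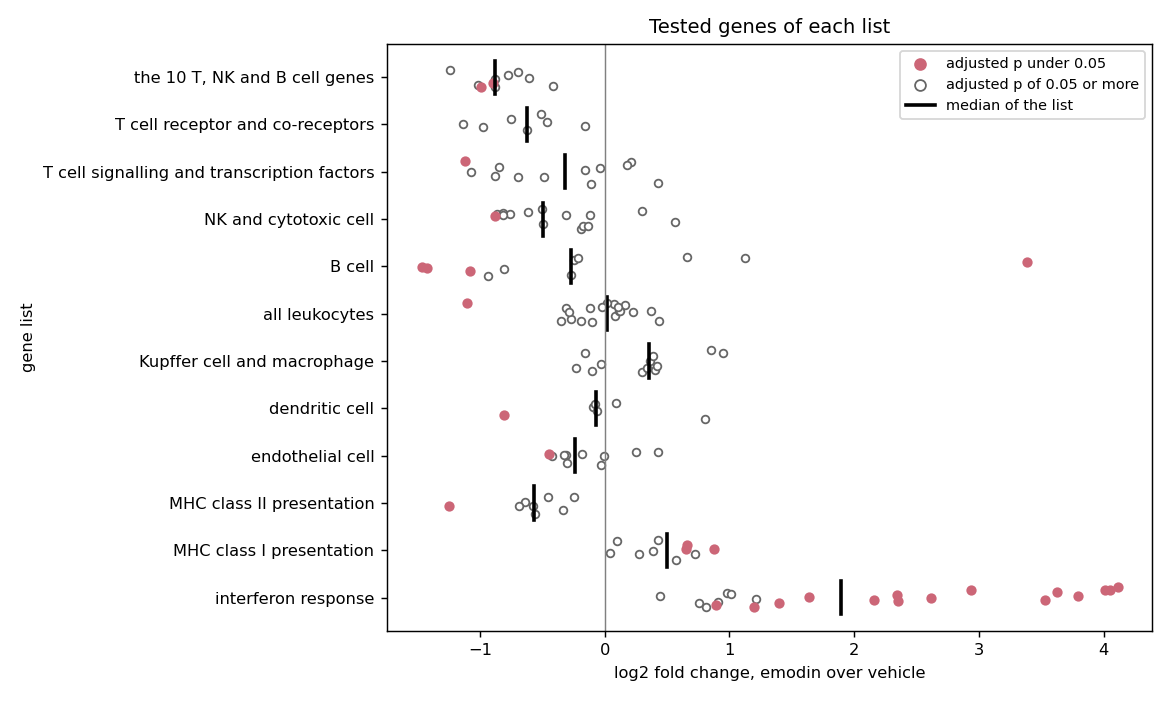
Log2 fold change, emodin over vehicle (horizontal axis), of the 10 genes and of the tested genes of 11 lists (rows), with red points at an adjusted p under 0.05, open points otherwise and a black bar at each list's median. The 10 genes form the top row and are left out of the other rows. Their median of -0.88 lies left of those of all leukocytes (0.02) and of the Kupffer cell and macrophage list (0.35), and the interferon list lies at 1.9.

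Signals that draw and hold lymphocytes moved in both directions. Cxcl10, a chemokine for activated T and NK cells, rose 15.9-fold (log2 fold change 3.99 ± 1.00, edgeR adjusted p = 0.0186), with only emodin 2, 4, 5 and 8 above every vehicle liver (66.1 to 258 CPM, against up to 7.03 CPM). The call of Cxcl10 was lost in 5 of 10 other settings, where its log2 fold change went as low as 0.80. Icam1, the ligand of a lymphocyte integrin, rose 2.39-fold (1.26 ± 0.34, edgeR adjusted p = 0.0241; 1.12 without emodin 2, where the call was lost, as it was in 4 of 10 other settings). S1pr1, a receptor that guides lymphocytes out of tissue and that endothelium also carries, fell 1.33-fold (-0.41 ± 0.12, edgeR adjusted p = 0.0306) and did not pass without vehicle 1, 3 or 5 or emodin 2, 5 or 6 (-0.39 to -0.36), and in 3 of 10 other settings. The other 14 of 17 tested genes of this list did not pass. Of 11 cytokine and receptor genes 0 passed in edgeR (1 at an unadjusted p under 0.05; 1 in DESeq2), with Il7r, the survival receptor of T cells, at -0.79 ± 0.27 (edgeR adjusted p = 0.0562). Of 6 tested genes of inhibitory receptors and their ligands 0 passed in edgeR (3 at an unadjusted p under 0.05, 2 in DESeq2), and Btla had -0.79 ± 0.27 (edgeR adjusted p = 0.0625). Cd160 counts both in this list and in the NK and cytotoxic list. Of 3 tested plasma cell genes 0 passed in edgeR and 0 in DESeq2 (1 at an unadjusted p under 0.05).

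Genes common to all leukocytes had values on both sides of 0. Of 19 tested, 1 fell, 0 rose and 18 did not pass, and the median was 0.02. Ptprc had a value of -0.27 on the log2 scale (edgeR adjusted p = 0.452). The gene that fell, Ikzf3, encodes a transcription factor of lymphocytes (-1.10 ± 0.35, edgeR adjusted p = 0.0462), and it lost its call in 6 of 10 other settings and in 13 of 16 fits with 1 liver left out (all but those without vehicle 2, emodin 1 or emodin 5; -1.17 to -0.80). The Kupffer cell and macrophage list had 0 of 12 calls in edgeR (1 at an unadjusted p under 0.05; 1 in DESeq2, Cd68) and a median of 0.35, with summed levels of 174 to 753 CPM in the vehicle and 277 to 709 CPM in the emodin livers. Vehicle 4, highest for the B cell genes, was also the highest liver for this sum and for the leukocyte list (156 CPM), and vehicle 7, highest for T cell and cytotoxic genes, was the second of the vehicle livers for the leukocyte list (106 CPM).

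Transcripts of MHC class II presentation, carried by B cells, dendritic cells and macrophages, had values below 0 in 8 of 8 tested genes with a median of -0.57, but 1 passed, H2-Ob (-1.25 ± 0.36, edgeR adjusted p = 0.0288), which lost its call without vehicle 3, 4 or 5 or emodin 2 (-1.21 to -1.06) and in 5 of 10 other settings. Class I genes, which interferons induce, rose in 3 of 10 and fell in 0. Of 6 dendritic cell genes Xcr1 alone passed (-0.80 ± 0.26, edgeR adjusted p = 0.0493), and it lost its call in 6 of 10 other settings and in 13 of 16 fits with 1 liver left out (all but those without vehicle 3, vehicle 6 or emodin 1; -0.89 to -0.70).

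Hemoglobin and other red blood cell genes, whose RNA can come from blood held in a piece of liver, had a median log2 fold change of -0.32. These genes had 0 of 5 calls in edgeR, 0 at an unadjusted p under 0.05 and 0 in DESeq2. Their sum was 232 to 767 CPM in the vehicle and 187 to 437 CPM in the emodin livers, highest in vehicle 2 and vehicle 7 (767 and 537 CPM) and lowest in emodin 8 (187 CPM). Their part in the levels of the lymphocyte genes was not tested. Of the other marker lists, neutrophil genes rose in 1 of 5 (Prtn3), endothelial genes fell in 1 of 10 (Kdr, -0.45 ± 0.10, edgeR adjusted p = 0.00918) and hepatocyte genes in 1 of 10 (Alb, -0.50 ± 0.15, 0.0309; -0.49 to -0.46 and not passing without vehicle 3, 4, 5 or 8 or emodin 2 or 5). Alb also lost its call in 4 of 10 other settings, and Prtn3 and Kdr lost theirs in 1 each. The settings for Alb included quantile normalization, where its value was 0. That method gives entries of equal rank the same value, so it cannot show a change in a gene whose rank is the same in every library. Stellate, bile duct, platelet, pancreas and cell division genes had 0 calls in edgeR, with 1 gene of each list at an unadjusted p under 0.05. DESeq2 called 1 gene in each of these lists but the pancreas list, where it called 0.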

How the data were processed

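Total RNA of 16 mouse livers, 8 per group, had been sequenced. The authors deposited 1 table of 27446 entries with estimated counts per gene, whole numbers in every library and not normalized as far as the values show, although the deposited name speaks of FPKM, and the tool that produced them is not given in the sources used here. The submitters' processing notes name cutadapt 1.9.1, HISAT2, SAMtools 0.1.19, HTSeq 0.6.1, Cufflinks 2.2.1 and mm10, with no roles. Groups were taken from the labels.

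Entries passing edgeR's filterByExpr (14308) were scaled by TMM and tested with edgeR 4.0.16 (R 4.3.3; robust quasi-likelihood fit, emodin against vehicle, no covariate), with Benjamini-Hochberg adjustment over all of them and a call at an adjusted p under 0.05. The SE was computed from the log2 fold change and the F statistic. All 10 genes passed the filter. Several reached its cutoff of 0.294 CPM (before TMM scaling) in more vehicle than emodin livers, and none in more emodin livers. The vehicle and emodin livers were 8 and 5 for Cd2, 8 and 6 for Cd3e, 7 and 5 for Cd79a, and 5 and 4 for Ms4a1. Totals of 28.3 to 48.2 M counts per library gave 0 to 246 counts per gene and liver, and a count of 0 was given a floor of 3 counts. Intervals and floors cover counting error only. Positions are those of GENCODE M21, and promoter windows those of RefSeq.

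The alternatives were DESeq2 1.42.0, total counts, scaling without the 50 most abundant entries, quantile normalization and array weights (limma 3.58.1), no filter, entries with an Ensembl ID, a replicate block, a rank-sum test, and leaving out each liver. Leaving out libraries of low array weight was added after seeing the data. The 10 genes and 23 gene lists were chosen with earlier results of these data known. Other genes are named where they were among the called genes of a list with the smallest p (up to 4 for a lymphocyte list, 2 for another), the 2 uncalled genes of a lymphocyte list with the smallest p, or the 5 nearest by rank. Some genes that this rule names are not reported here and stand only in the counts. Cd68, Spp1, Krt19, Krt7, Sox9 and Epcam were named after their values were seen. Of 311 listed genes, 14 were not analysed here.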

Additional observations from a re-analysis of the deposited data

Results flagged for a closer look

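Single livers stood far from the other 7 of their group, by the gap to the nearest liver as a share of the group's range (Dixon's 95% limit), in 14 of 92 gene and group combinations, 3 of them among the 20 for the 10 genes. For independent values with a normal spread the limit flags about 1 in 20. The genes share livers, so that rate need not hold here and the counts are a description.

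Vehicle 7 stood high for 3 of the 10 genes, Cd3e at 2.17 CPM, Cd8a at 4.95 CPM and Nkg7 at 3.31 CPM, and also for Ikzf3 at 2.78 CPM. Vehicle 4 stood high for Pou2af1 at 2.24 CPM, Bank1 at 4.12 CPM, Icam1 at 10.98 CPM, Cd52 at 10.2 CPM, Vav1 at 5.05 CPM and Irf7 at 46.2 CPM. Vehicle 3 stood high for Cd247 at 1.12 CPM. Among the emodin livers, emodin 4 stood high for Ly6d at 27.6 CPM, and emodin 8 stood high for S1pr1 at 36.5 CPM and low for Cxcr6 at 0.306 CPM.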

How the results depend on the processing

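Of the 10 genes 2 were called, and 3 in DESeq2. With total counts as scaling, quantile normalization, no filter on low counts, a rank-sum test, or without the libraries of low array weight (emodin 4, 5 and 8, an alternative added after seeing the data), 1 was called, Lck. With each liver left out, 1 to 2 of the 10 were called, while 1246 to 2200 of all entries were called (1884 with all livers; 1246 without emodin 4) and 521 to 903 were called lower (782 with all livers; 521 without emodin 2). With replicate numbers as a block, 1 of the 10 was called, and 635 entries lower. The numbers do not pair the livers by any label, the deviations of same-numbered livers correlated at -0.149 to 0.245, and 2 of 8 numbers correlated best with their own. No setting moved the median log2 fold change of all entries by over 0.1. Counting error, set by depth, came to 10.1% to 27.0% of the mean per liver for the 10 genes, below the spread between livers for each.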
